A study of Mus musculus with 10 samples.

Results

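The Hox cluster genes encode homeobox transcription factors, and in the mouse they lie in 4 clusters, Hoxa on chromosome 6, Hoxb on chromosome 11, Hoxc on chromosome 15 and Hoxd on chromosome 2. The members were picked by name and not by signal. Earlier results of these data were known when they and the gene lists below were chosen. Every probe set that the probe annotation pairs with exactly 1 symbol, made of Hox, a cluster letter and a paralogue number, was taken whatever its signal. This gave 48 probe sets of 45101 on the array. They read 33 genes of 18193 with a probe set of their own, and 33 of the 39 Hox genes in the RefSeq gene table. The Hoxa cluster had 16 probe sets for 9 genes, Hoxb 11 for 9, Hoxc 11 for 7 and Hoxd 10 for 8. Of the 33 genes, 22 had 1 probe set and 11 had several. The other Hox genes were not analysed here, and 3 probe sets whose symbol field joins a Hox gene with another symbol were left out.

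Hox proteins give cells their position along the body axis and along the limb. Within each cluster the genes stand in the order of their paralogue numbers, and low numbers are first used early and near the head while high numbers are used late, toward the tail and in the distal limb. In pluripotent stem cells the clusters are held silent by Polycomb group proteins, while retinoic acid and WNT signals open them from the low-number end during differentiation. Human skin fibroblasts keep a Hox pattern in culture that reflects the body site they came from. Hox proteins bind DNA together with cofactors of the Pbx, Meis and Pknox families.

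RNA of 10 samples was measured on Affymetrix GeneChip arrays. AG-haESC are haploid embryonic stem cells of androgenetic origin, which means that their genome is paternal only, and 5 lines of C57BL/6J background at passages 12 to 15 were measured on 1 array each. Lines AGH-OG-1, AGH-OG-2, AGH-OG-3 and AGH-OG-4, which are AG-haESC replicates 1, 2, 4 and 5, carried Oct4-EGFP, and AGH-EG-1, replicate 3, carried Actin-EGFP. E14 is a wild-type diploid stem cell line of a male 129/Sv embryo, measured at passage 17 on 3 arrays, so its replicates hold no spread between lines. MEF are wild-type embryonic fibroblasts of a male B6D2F1 embryo (d13.5) at passage 2, measured on 2 arrays, and whether both arrays came from the same embryo, and from which body parts the cells were taken, is not stated. All cells were sorted on DNA content after staining with a Hoechst dye, at the 1n peak for AG-haESC and at the 2n peak for E14 and MEF. AG-haESC were grown on feeder cells with the inhibitors CHIR99021 (of GSK3, which raises WNT signalling) and PD0325901 (of MEK), and no medium is stated for E14 and MEF. Between AG-haESC and E14 the ploidy, parental origin, strain, passage, transgene and possibly culture differ at once and cannot be told apart. The sample titles call the E14 and MEF arrays biological replicates, without saying whether they came from separate cultures or embryos. The p-values measure the spread between these arrays, and how much of it is technical is not known.

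Values are log2 of the deposited signal, and each array was scaled by the authors to the same trimmed mean of 500. Array medians lay between 5.81 and 6.09 on the log2 scale, and a probe set below its array's own median is called dim here because background makes up much of such a signal. Detection calls, scan dates and slides were not at hand. As a check of the labels, all 12 pluripotency markers lay above the median on every AG-haESC and E14 array and 2 of 12 on each MEF array. Of 20 fibroblast markers, 20 lay above it on both MEF arrays, 18 to 20 on the AG-haESC arrays and 11 to 14 on the E14 arrays. That count therefore does not separate MEF from AG-haESC. The summed fibroblast signal was 307441 and 256110 in MEF and 19536 to 32580 in the stem cell arrays. In whole-culture RNA, fewer cells that use a gene and less RNA of it per cell cannot be told apart, for Hox genes as for others.

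RefSeq promoters (assembly GRCm38.p6) were at hand for 21 start sites of 19 member genes, and the 250 bases upstream of the start of 4 of them are shown because these genes mark the different patterns described below. Hoxb1 (plus strand, chr11:96365508-96365757) was the member with a lower call in MEF than in E14, Hoxc4 (plus strand, chr15:103034145-103034394) was called higher in AG-haESC than in E14, Hoxd10 (plus strand, chr2:74691641-74691890) was dim in all stem cell arrays and above the median in MEF, and Hoxd13 (plus strand, chr2:74667975-74668224) was above the median on all 3 E14 and both MEF arrays. Capitals mark CG dinucleotides, the sites of DNA methylation in mammals.
Hoxb1: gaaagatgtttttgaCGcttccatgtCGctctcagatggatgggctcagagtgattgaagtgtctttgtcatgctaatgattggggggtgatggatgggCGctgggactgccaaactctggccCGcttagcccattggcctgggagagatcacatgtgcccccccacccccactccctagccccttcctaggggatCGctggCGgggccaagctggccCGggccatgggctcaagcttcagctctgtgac
Hoxc4: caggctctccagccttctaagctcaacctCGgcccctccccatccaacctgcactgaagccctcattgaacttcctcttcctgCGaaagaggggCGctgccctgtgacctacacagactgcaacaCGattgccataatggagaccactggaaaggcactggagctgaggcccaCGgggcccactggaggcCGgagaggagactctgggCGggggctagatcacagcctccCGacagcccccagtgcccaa
Hoxd10: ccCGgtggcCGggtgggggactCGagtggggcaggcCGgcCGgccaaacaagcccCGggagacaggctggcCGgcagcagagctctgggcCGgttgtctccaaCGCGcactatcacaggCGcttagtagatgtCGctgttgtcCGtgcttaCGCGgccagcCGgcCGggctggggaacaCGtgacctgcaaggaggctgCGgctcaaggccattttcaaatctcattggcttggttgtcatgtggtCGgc
Hoxd13: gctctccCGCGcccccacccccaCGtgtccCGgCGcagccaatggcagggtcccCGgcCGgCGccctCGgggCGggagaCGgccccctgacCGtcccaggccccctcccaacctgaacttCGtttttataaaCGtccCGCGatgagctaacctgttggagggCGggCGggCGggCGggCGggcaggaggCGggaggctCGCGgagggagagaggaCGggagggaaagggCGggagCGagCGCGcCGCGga
These windows hold 7 CG dinucleotides in Hoxb1, 8 in Hoxc4, 20 in Hoxd10 and 31 in Hoxd13. The median was 13 over the 21 Hox windows and 6 over all 32851 RefSeq promoter windows of the same length. Motifs were searched on both strands, each was scored separately as present or absent, and matches of different motifs may overlap by some letters. The core site of retinoic acid and other nuclear receptors, AGGTCA, was present in 5 of 21 Hox windows (23.8%, against 14% of all windows), among them Hoxc4 and Hoxd10. The Pbx and Hox composite motif TGATNNAT was present in 3 of 21 (14.3%, against 7.7%), among them Hoxb1. The CCAAT box was present in 11 of 21 (52.4%, against 33.8%) and the TATA motif TATAAA in 2 of 21 (9.5%, against 12.4%), one of them Hoxd13. A match is a description of the letters and not of binding, and no methylation or binding was measured here.

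MEF had Hox genes of all 4 clusters above the array median, and the stem cells had few. Of 48 Hox probe sets, 35 lay above the array median in MEF replicate 1 and 34 in MEF replicate 2. The AG-haESC arrays had 16, 17, 14, 11 and 18 above the median in replicates 1 to 5, and the E14 arrays 13, 11 and 6 in replicates 1 to 3. Every stem cell array lay below both MEF arrays, and E14 replicate 3 had the lowest count of the 10. In MEF, 32 probe sets (66.7%, 24 genes) were above the median on both arrays, where 47.2% of all probe sets were. On all 5 AG-haESC arrays 9 were above the median (18.8%, against 42.9% of all probe sets), and on all 3 E14 arrays 3 were (6.25%, against 43.5%). A pattern of both MEF arrays above and every stem cell array below the median was shown by 13 probe sets of 12 genes. These were Hoxa2, Hoxa3, Hoxa7, Hoxb3, Hoxb4, Hoxb5, Hoxb6, Hoxc5, Hoxc8, Hoxc10, Hoxd3 and Hoxd10. The share of all probe sets with this pattern was not counted. Dim on all 10 arrays were 6 probe sets (12.5%, against 33.6% of all probe sets), and Hoxb7 was the gene with no other probe set.

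**Figure D1:**
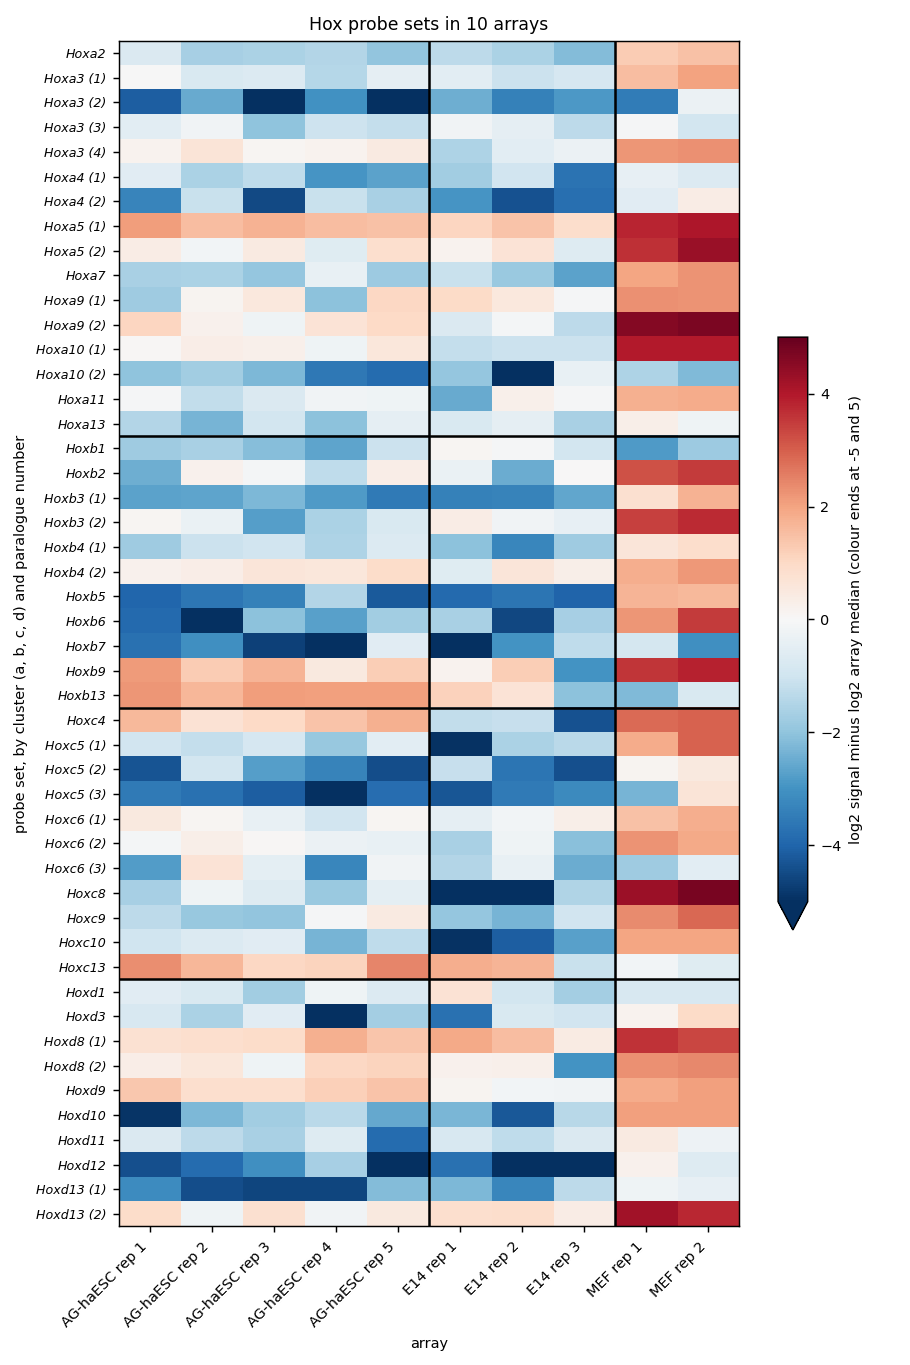
Log2 signal minus the array's own log2 median for each of 48 Hox probe sets (rows, by cluster a to d and paralogue number, with probe sets of the same gene numbered) in 10 arrays (columns, 5 AG-haESC, 3 E14, 2 MEF). Red lies above the array median and blue below it, and the MEF columns are red for 35 and 34 of 48 rows while the stem cell columns are red for 6 to 18.

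MEF were compared with E14 to show which Hox genes a fibroblast of the mid-gestation embryo holds against a diploid stem cell line. In limma, with 45037 probe sets tested and a call at adjusted p below 0.05 and at least 2-fold, 33 of 48 Hox probe sets were higher in MEF (68.8%, 25 genes, against 12% of all probe sets) and 1 was lower (2.08%, against 12.7% of all). The median Hox difference was 2.99 log2 units, where that over all probe sets was -0.15. All MEF arrays lay above all E14 arrays for 39 of 48 probe sets (81.2%, against 24.6% of all). They lay below all E14 arrays for 1 (2.08%, against 29.4% of all). In 22 of the 34 calls every array of the dimmer group was dim, so the fold is a lower bound there, computed against the array medians. In 9 further calls some arrays of E14 were dim, and the fold with those put at the array medians is given where it was lower by over 1.5 times. The 30 folds of higher probe sets that could be given ranged from at least 1.19 to at least 24.2.

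By cluster, 10 of 16 Hoxa probe sets, 8 of 11 Hoxb, 9 of 11 Hoxc and 6 of 10 Hoxd were higher in MEF than in E14. By paralogue number, 30 of 38 probe sets of numbers 2 to 10 were higher, covering 22 of 24 genes. Of numbers 11 to 13, 3 of 8 probe sets and 3 of 7 genes were higher. Of number 1, with Hoxb1 and Hoxd1 analysed here, none of 2 was higher and Hoxb1 was lower. All 9 genes of numbers 8 to 10 had a probe set that was higher. A difference between the number classes was not tested.

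**Figure D2:**
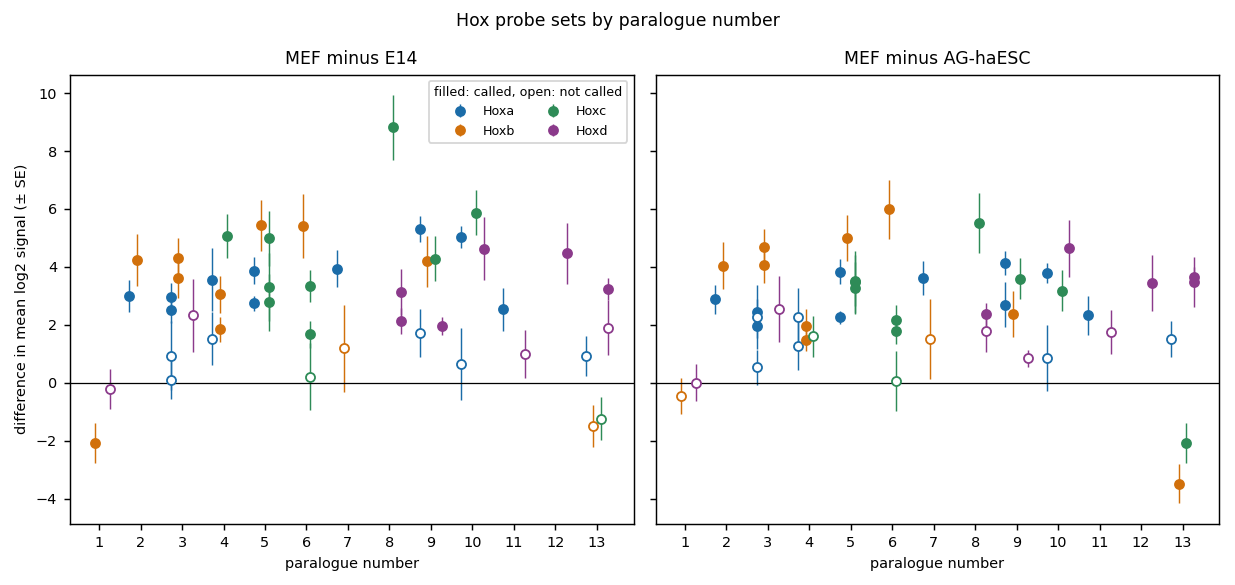
Difference in mean log2 signal (y axis, with SE of the fit) of each Hox probe set against its paralogue number (x axis), for MEF minus E14 (left) and MEF minus AG-haESC (right), coloured by cluster. Filled points were called. Numbers 2 to 10 hold 30 called higher of 38 on the left and 27 on the right, and the points below 0 that were called are Hoxb1 on the left and Hoxb13 and Hoxc13 on the right.

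In the Hoxa cluster Hoxa9, a factor of blood stem cells and of several leukaemias, and Hoxa10, needed in the uterus, were higher in MEF than in E14. The probe set 1455626_at of Hoxa9 read 10.63 and 10.64 in MEF and 5.22, 5.97 and 4.77 in E14, and 6.89, 6.24, 5.66, 6.64 and 7.06 in AG-haESC. MEF stood far above every stem cell array, and the E14 arrays were all dim. The difference from E14 was 5.31 ± 0.46 (SE), at least 24.2-fold (adjusted p = 2.04e-06 in limma). Hoxa10 (1431475_a_at) read 10.03 and 9.89 in MEF and 4.75, 5.02 and 5.02 in E14, a difference of 5.03 ± 0.37, at least 15.2-fold (adjusted p = 5.61e-07 in limma). Hoxa7, which acts in the thoracic axis, read 8.03 and 8.17 in MEF and 4.84, 4.23 and 3.40 in E14, a difference of 3.94 ± 0.64, at least 4.18-fold (adjusted p = 0.000387 in limma). The E14 and AG-haESC arrays were dim for Hoxa7 throughout, and no stem cell value came within 2 log2 units of MEF.

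Hoxa5, which patterns the neck and the lung, was above the median in every array by 1 of its 2 probe sets. That probe set, 1443803_x_at, read 9.84 and 9.95 in MEF, 7.01, 7.52 and 6.94 in E14, and 7.90, 7.59, 7.64, 7.51 and 7.53 in AG-haESC. MEF did not overlap with either stem cell group, and the difference of 2.74 ± 0.25 from E14 was a measured 6.68-fold (adjusted p = 4.03e-06 in limma). The other probe set, 1448926_at, read 9.70 and 10.25 in MEF against 5.37 to 6.90 over all stem cell arrays, a 14.7-fold difference from E14. Hoxa2, which sets the identity of the hindbrain and the second pharyngeal arch, was at least 2.50-fold higher in MEF than in E14, with 7.32 and 7.40 against 4.64, 4.49 and 3.93. Hoxa11, which shapes the middle segment of the limb, read 7.85 and 7.79 in MEF and 3.43, 6.35 and 6.04 in E14, a difference of 2.54 ± 0.74 (5.83-fold, or 3.23-fold with its 2 dim E14 arrays at the median, adjusted p = 0.0183 in limma). Its E14 values spread over almost 3 log2 units, and the call ended without either MEF array (adjusted p = 0.0979 without replicate 1 and 0.094 without replicate 2). Hoxa13, the most distal Hoxa gene, read 6.36 and 5.71 in MEF and 5.19, 5.63 and 4.47 in E14, so it was above the median on 1 MEF array and was not called (adjusted p = 0.353 in limma).

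In the Hoxb cluster Hoxb2, Hoxb3, Hoxb4, Hoxb5, Hoxb6 and Hoxb9 were higher in MEF than in E14, and their order by size is not known where E14 was dim. Hoxb5, a factor of trunk neural crest and lung, read 7.74 and 7.52 in MEF, 2.06, 2.44 and 2.09 in E14, and 1.85, 2.42, 2.52, 4.53 and 1.86 in AG-haESC. All 8 stem cell arrays were dim, and the difference of 5.43 ± 0.87 from E14 was at least 3.02-fold (adjusted p = 0.000361 in limma). Hoxb6 read 8.28 and 9.41 in MEF and 4.31, 1.55 and 4.40 in E14, a difference of 5.42 ± 1.11, at least 6.98-fold (adjusted p = 0.00222 in limma). Hoxb3, which acts in the hindbrain and the pharyngeal arches, had both probe sets higher, with 6.86 and 7.64 in MEF against 2.57, 2.73 and 3.49 in E14 for 1427605_at and 9.49 and 9.66 against 6.32, 5.90 and 5.67 for 1456229_at. The MEF and E14 ranges did not meet in any of these. Hoxb2 (4.23 ± 0.89, 18.8-fold, or 9.77-fold with its 2 dim E14 arrays at the median), both probe sets of Hoxb4 (3.06 ± 0.65 and 1.85 ± 0.43) and Hoxb9 (4.19 ± 0.87, 18.2-fold, or 9.18-fold with its dim E14 array at the median) were higher too, though the call of the Hoxb4 probe set 1460379_at ended without MEF replicate 2 (adjusted p = 0.0544). Hoxb7 was not called, with 5.16 and 2.83 in MEF and 0.50, 3.12 and 4.81 in E14, dim on every array.

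Hoxb1, which specifies a hindbrain segment and is among the first Hox genes that retinoic acid turns on, went the other way. It read 3.23 and 4.10 in MEF, 6.05, 6.01 and 5.17 in E14, and 4.04, 4.42, 3.78, 3.35 and 5.01 in AG-haESC. The E14 arrays were the highest, and 1 of them lay above its array median, so that no fold is given. MEF were lower than E14 by a difference of -2.08 ± 0.68 (adjusted p = 0.0348 in limma). The call ended without E14 replicate 1 (adjusted p = 0.0945), E14 replicate 2 (0.0902), MEF replicate 1 (0.211) or MEF replicate 2 (0.0612). Hoxd1, the other number 1 gene analysed here, read 5.26 and 5.10 in MEF and 6.65, 5.15 and 4.38 in E14, and the ranges overlapped (adjusted p = 0.862 in limma).

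In the Hoxc cluster Hoxc4, Hoxc5, Hoxc6, Hoxc8, Hoxc9 and Hoxc10 were higher in MEF than in E14. Hoxc8, which patterns the thorax and the motor neurons of the forelimb level, read 10.34 and 10.66 in MEF and 0.02, 0.44 and 4.58 in E14. The difference was 8.82 ± 1.11 log2 units (adjusted p = 5.13e-05 in limma), but since the E14 values were dim it shows a change of at least 22.03-fold. Hoxc10, used at the lumbar level and in the hindlimb, read 8.03 and 7.90 in MEF and 0.99, 1.95 and 3.36 in E14 (5.87 ± 0.78, at least 3.81-fold, adjusted p = 7.7e-05 in limma). Hoxc4, used at the neck, read 8.88 and 8.87 in MEF and 4.73, 4.93 and 1.72 in E14 (5.08 ± 0.76, at least 7.15-fold, adjusted p = 0.0002 in limma). All 3 genes were dim on every E14 array. Hoxc9, used in the thorax, was at least 5.85-fold higher, with 8.40 and 8.77 in MEF against 4.02, 3.77 and 5.13. All 3 probe sets of Hoxc5 were higher in MEF, by 4.98 ± 0.95, 3.31 ± 1.16 and 2.78 ± 0.98, and the calls of the probe sets 1450832_at and 1456301_at (adjusted p = 0.0466 and 0.0482 in limma) were fragile. That of 1450832_at ended without AG-haESC replicate 3 or 4, E14 replicate 2 or 3 or either MEF array (adjusted p from 0.0575 to 0.187). That of 1456301_at ended without AG-haESC replicate 1, 2, 3 or 5, any E14 array or MEF replicate 2 (adjusted p from 0.0577 to 0.471).

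In the Hoxd cluster Hoxd8, Hoxd9, Hoxd10, Hoxd12 and Hoxd13 were higher in MEF than in E14. Hoxd10, a partner of Hoxc10 at the lumbar level, read 8.09 and 7.98 in MEF, 3.65, 1.83 and 4.71 in E14, and 0.91, 3.80, 4.15, 4.61 and 3.52 in AG-haESC. Every stem cell array was dim, and the difference of 4.64 ± 1.08 from E14 was at least 3.99-fold (adjusted p = 0.00508 in limma). Hoxd13, which shapes the digits, read 10.26 and 9.68 in MEF and 6.80, 6.98 and 6.46 in E14 with 1440626_at, a measured 9.36-fold difference (3.23 ± 0.38, adjusted p = 2.85e-05 in limma). Hoxd12, which acts with Hoxd13 in the digits, was above the median on 1 MEF array, with 6.26 and 5.26 against 2.20, 0.86 and 0.82 in E14, so its call (4.47 ± 1.05, adjusted p = 0.00554 in limma) has no fold. It ended without MEF replicate 1 (adjusted p = 0.0634) and with dim values set to the array median (0.708). Hoxd8 was higher with both probe sets (4.40-fold for 1431099_at and 8.81-fold for 1433638_s_at, where 1 of 3 E14 arrays was dim and the fold with it at the median is also 4.40) and Hoxd9 was 3.89-fold higher, with 7.91 and 7.96 against 6.07, 5.96 and 5.89. The call of the Hoxd8 probe set 1433638_s_at ended without MEF replicate 1 or 2 (adjusted p = 0.0587 and 0.0605). Hoxd11 was above the median on 1 MEF array and was not called (6.52 and 5.67 against 5.15, 4.81 and 5.35, adjusted p = 0.428 in limma). Hoxd3, not called either (adjusted p = 0.194 in limma), read 6.24 and 6.86 in MEF, 2.22, 5.32 and 5.11 in E14 and no value above its array median in any stem cell array.

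MEF against AG-haESC shares the MEF arrays with the comparison above, so both show the same MEF values. Against AG-haESC, 31 of 48 Hox probe sets were higher in MEF (64.6%, 22 genes, against 12.7% of all probe sets) and 2 were lower (4.17%, against 12.6% of all). The median difference was 2.37 log2 units, where that of all probe sets was -0.06. All MEF arrays lay above all AG-haESC arrays for 38 probe sets (79.2%, against 23.1%), and below them for 2 (4.17%, against 23.5%). Higher in MEF than in both stem cell groups were 29 probe sets (60.4%, 22 genes, against 9.32% of all). By cluster, 10 Hoxa, 8 Hoxb, 8 Hoxc and 5 Hoxd probe sets were higher. Hoxc8 was at least 23.3-fold higher. Hoxa9 (1455626_at) was 17.6-fold higher with 4 of 5 AG-haESC arrays above the median, and Hoxa5 (1448926_at) 14.3-fold with 3 of 5. Hoxb3 (1456229_at) was 25.7-fold and Hoxb2 16.4-fold higher, but 1 and 2 of 5 AG-haESC arrays lay above the median, and with the dim ones at the median the folds were 12.1 and 9.7. Higher calls made against E14 and not against AG-haESC were those of Hoxc4, Hoxd9, Hoxa4 (1427354_at) and Hoxd8 (1433638_s_at), at 1.60 ± 0.70, 0.85 ± 0.30, 2.28 ± 0.99 and 1.80 ± 0.74. Without E14 replicate 3, Hoxc4 and the Hoxd8 probe set were called against AG-haESC as well (adjusted p = 0.00149 and 0.0028). That the differences from the stem cell groups differ was tested for Hoxc4 and Hoxd9 by the AG-haESC against E14 contrast below.

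Hoxb13 and Hoxc13, the most caudal genes of their clusters, were lower in MEF than in AG-haESC. Hoxb13, known from the tail tip and the prostate, read 8.03, 7.69, 7.96, 8.01 and 8.13 in AG-haESC, 7.11, 6.78 and 4.04 in E14, and 3.83 and 5.14 in MEF. The AG-haESC arrays lay close together and above all others, and MEF were at least 3.95-fold lower (-3.48 ± 0.67, adjusted p = 0.0012 in limma). Hoxc13, known from hair and nails, read 8.15, 7.71, 6.92, 7.10 and 8.52 in AG-haESC, 7.78, 7.78 and 4.96 in E14, and 5.92 and 5.30 in MEF. MEF lay below all AG-haESC arrays and were at least 3.24-fold lower (-2.07 ± 0.68, adjusted p = 0.0337 in limma). This second call ended without MEF replicate 1 (adjusted p = 0.092) or 2 (0.224), and without AG-haESC replicate 1 (0.0632), 2 (0.0574) or 5 (0.0694). E14 replicates 1 and 2 were above the median for both genes and replicate 3 was dim for both. The lower call of MEF against E14 was not made for Hoxb13 or Hoxc13 with all arrays (-1.50 ± 0.73 and -1.23 ± 0.75), but both were called lower without E14 replicate 3 (adjusted p = 0.000541 and 0.00437).

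The MEF cultures also held macrophage and muscle markers, while 3 other cell type lists did not rise as a set against E14. Higher and lower in MEF were 0 and 3 of 6 endothelial, 2 and 2 of 8 neural and 1 and 2 of 7 early mesoderm markers. Of all genes, 15.1% were higher and 15.5% lower. Of 7 macrophage markers, 5 were higher in MEF than in E14 (against 15.1% of all genes by their brightest probe set), among them Lyz2 (at least 48.8-fold) and Cd14, and their summed signal was 5931 and 5488 in MEF, 475 to 622 in AG-haESC and 526 to 605 in E14. Of 6 muscle markers, 4 were higher (against the same 15.1%), among them Tnnt2 (at least 9.67-fold) and Actc1 (16.6-fold), with a summed signal of 3802 and 3564 in MEF, 247 to 525 in AG-haESC and 507 to 636 in E14. All 7 macrophage and all 6 muscle markers lay above the median on both MEF arrays, and no marker was listed at 0. The part of these cells in the Hox levels of MEF was not tested.

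AG-haESC were compared with E14 to show how the haploid lines stand against a diploid line, and a few Hox genes were higher in AG-haESC. Of 48 probe sets, 5 were higher in AG-haESC than in E14 (10.4%, against 2.56% of all probe sets) and 0 were lower (against 1.57% of all) in limma, where 1 was lower at an unadjusted p below 0.05, Hoxb1. The 5 were Hoxa10, Hoxc4, Hoxc8, Hoxc10 and Hoxd9, so 3 lie in the Hoxc cluster and 4 have numbers 8 to 10. Hoxc8 and Hoxc10 were dim on every stem cell array, so both of these counts rest in part on dim values. The median Hox difference was 0.20 log2 units, where that of all probe sets was -0.08. All AG-haESC arrays lay above all E14 arrays for 6 probe sets (12.5%, against 6.35% of all) and below them for Hoxb1 (2.08%, against 8.13%). The median difference was 0.84 in Hoxc, 0.24 in Hoxb, 0.16 in Hoxa and -0.22 in Hoxd, and a difference between clusters was not tested. The Hoxc median is the value of Hoxc13, which was not called and turned to -0.10 without E14 replicate 3. The Hoxc5, Hoxc8 and Hoxc10 probe sets were dim in both groups.

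Hoxc4 read 7.45, 6.78, 6.87, 7.41 and 7.84 in the AG-haESC lines and 4.73, 4.93 and 1.72 in E14. All 5 lines lay above their array medians and above all E14 arrays, which were dim. The difference was 3.48 ± 0.61, at least 2.35-fold (adjusted p = 0.0042 in limma), and the call was made under every alternative that was run. Hoxd9, whose proteins act in the limb and the lumbar axis, read 7.14, 6.89, 6.72, 7.16 and 7.51 in AG-haESC and 6.07, 5.96 and 5.89 in E14. Its difference of 1.11 ± 0.26 was a measured 2.16-fold (adjusted p = 0.0222 in limma), with groups that did not overlap, and the call ended without AG-haESC replicate 5 (adjusted p = 0.0526), E14 replicate 1 (0.0582) or E14 replicate 2 (0.0673), and with the pseudocount of 32, where the difference was 0.82 and so under 2-fold.

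Hoxa10 (1431475_a_at) read 5.86, 6.39, 6.15, 5.78 and 6.65 in AG-haESC and 4.75, 5.02 and 5.02 in E14. Of the AG-haESC arrays 4 lay just above their medians and all lay above E14, and the difference of 1.24 ± 0.30 was at least 1.09-fold (adjusted p = 0.0255 in limma). The call ended without AG-haESC replicate 2 or 5, E14 replicate 1 or 2, or either MEF array, at adjusted p from 0.0564 to 0.0904. It also ended with the pseudocount (0.0502), with the 2 groups fitted alone (0.0862) and with dim values set to the array median, where the difference was 0.17. Hoxc8 and Hoxc10 were dim on all 8 stem cell arrays, so no fold is given. Hoxc8 read 4.13, 5.85, 5.24, 4.12 and 5.59 in AG-haESC against 0.02, 0.44 and 4.58 in E14 (3.30 ± 0.89, adjusted p = 0.0453 in limma), and E14 replicate 3 lay above AG-haESC replicates 1 and 4. Hoxc10 read 4.79, 5.37, 5.32, 3.64 and 4.80 against 0.99, 1.95 and 3.36 (2.69 ± 0.62, adjusted p = 0.0215 in limma), and the groups did not overlap. With every value below the array median set to that median, both differences turned to -0.08, and the calls ended (adjusted p = 0.799 and 0.692). With the pseudocount both calls ended too (0.148 and 0.064), and that of Hoxc8 also without the prior trend (0.119) and with the 2 groups fitted alone (0.0857). Without single arrays the Hoxc8 call ended for AG-haESC replicates 1, 2, 3 and 5, E14 replicates 1 and 2 and both MEF arrays (adjusted p from 0.0563 to 0.188), and that of Hoxc10 for AG-haESC replicates 2 and 3 and E14 replicates 1 and 2 (0.0536 to 0.0923).

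**Figure D3:**
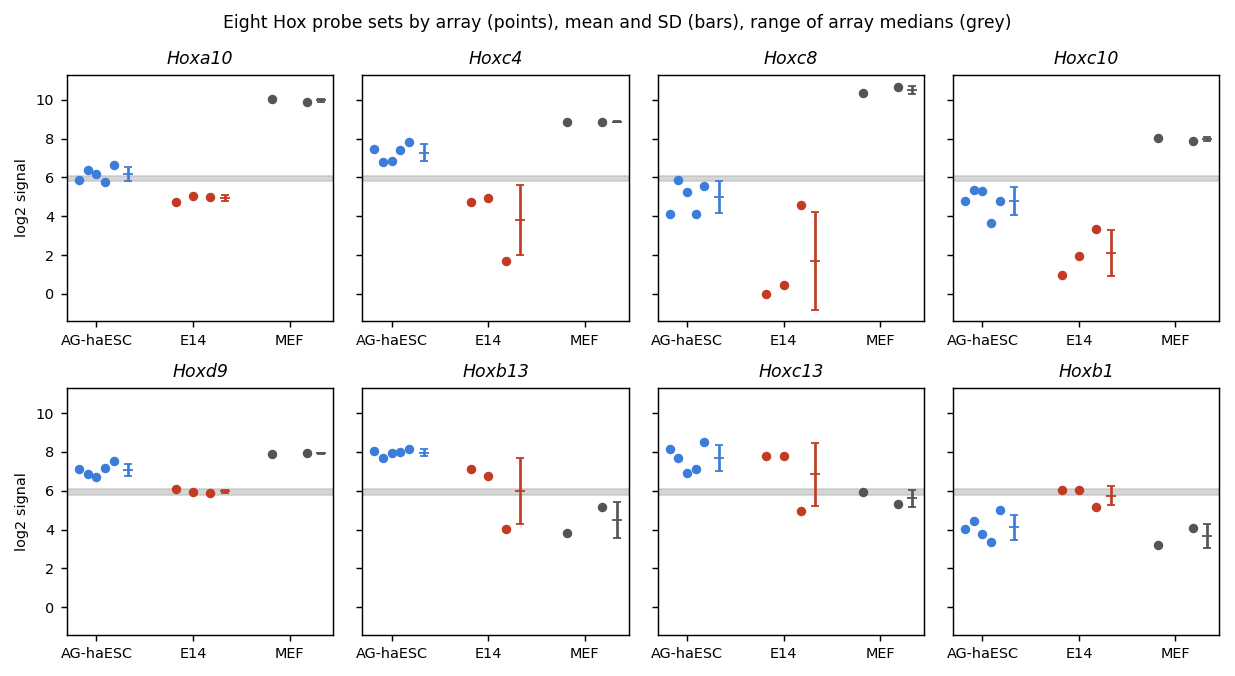
Log2 signal (y axis) of 8 Hox probe sets on each array (points) in AG-haESC (5), E14 (3) and MEF (2), with the mean and SD of each group beside the points and the range of the array medians in grey. Hoxc4 and Hoxd9 of AG-haESC lie above the grey band, and Hoxb13 is highest in AG-haESC. Hoxc8 and Hoxc10 of both stem cell groups lie below the band, apart from Hoxc8 in AG-haESC replicate 2. That point lies within the band and below its own array median.

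Hoxb13 was 3.96-fold higher in AG-haESC, by 1.99 ± 0.58, without passing the threshold (adjusted p = 0.0652 in limma), and all 5 lines lay above all 3 E14 arrays. It was called without E14 replicate 1 (adjusted p = 0.0405), with the filter on dim probe sets (0.0488), the pseudocount (0.029) or the floor (0.00696). Hoxb1 was lower in all 5 lines than in all 3 E14 arrays, by -1.62 ± 0.55, and was not called (adjusted p = 0.109 in limma). Other members above the median on all 5 AG-haESC arrays were Hoxa3 (1452421_at), Hoxa5 (1443803_x_at), Hoxb4 (1460379_at), Hoxb9, Hoxc13 and Hoxd8 (1431099_at), and none of these was called against E14 (adjusted p from 0.139 to 0.786 in limma). Hoxb9, a thoracic gene, read 7.92, 7.33, 7.59, 6.48 and 7.31 in AG-haESC and 6.12, 7.30 and 3.11 in E14, with overlapping ranges, and its difference of 1.82 ± 0.70 was called without E14 replicate 2 (adjusted p = 0.0351). Above the median on all 3 E14 arrays were Hoxa5 (1443803_x_at), Hoxd8 (1431099_at) and Hoxd13 (1440626_at). Hoxd8 read 7.84, 7.63 and 6.49 in E14 and 6.57, 6.87, 6.80, 7.74 and 7.46 in AG-haESC, with overlapping ranges. Hoxd13 read 6.71, 5.83, 6.69, 5.81 and 6.55 in AG-haESC, with 3 of 5 above the median, and overlapped with E14 (adjusted p = 0.497 in limma).

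More fibroblast markers lay above the median on the AG-haESC arrays than on the E14 arrays, and feeder cells are named in the culture of AG-haESC. AG-haESC were sorted at the 1n DNA peak, and whether feeder cells or their RNA remained after the sort was not tested. Of 20 fibroblast markers, 7 were higher in AG-haESC, led by Col1a1, Postn, Col1a2 and Col5a2 (against 3.04% of all genes by their brightest probe set), and none was lower. Above the median were 18 to 20 of 20 on the AG-haESC arrays, 11 to 14 on the E14 arrays and 20 on the MEF arrays, and no marker was listed at 0. The summed signal of the list was 20044 to 32580 in AG-haESC, 19536 to 20816 in E14, and 307441 and 256110 in MEF. Fn1 and Vim, which stem cells also express, did not pass the threshold between the stem cell groups (-0.12 ± 0.17 and -0.01 ± 0.14). Col1a1 read 6.96, 9.10, 8.33, 7.04 and 8.55 in AG-haESC, 5.74, 2.87 and 5.96 in E14, and 13.60 and 13.63 in MEF. Hoxc8 and Hoxc10 were dim on all AG-haESC arrays, so that the order of the lines in them is not known. The part of feeder RNA in the Hox differences was not tested.

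**Figure D4:**
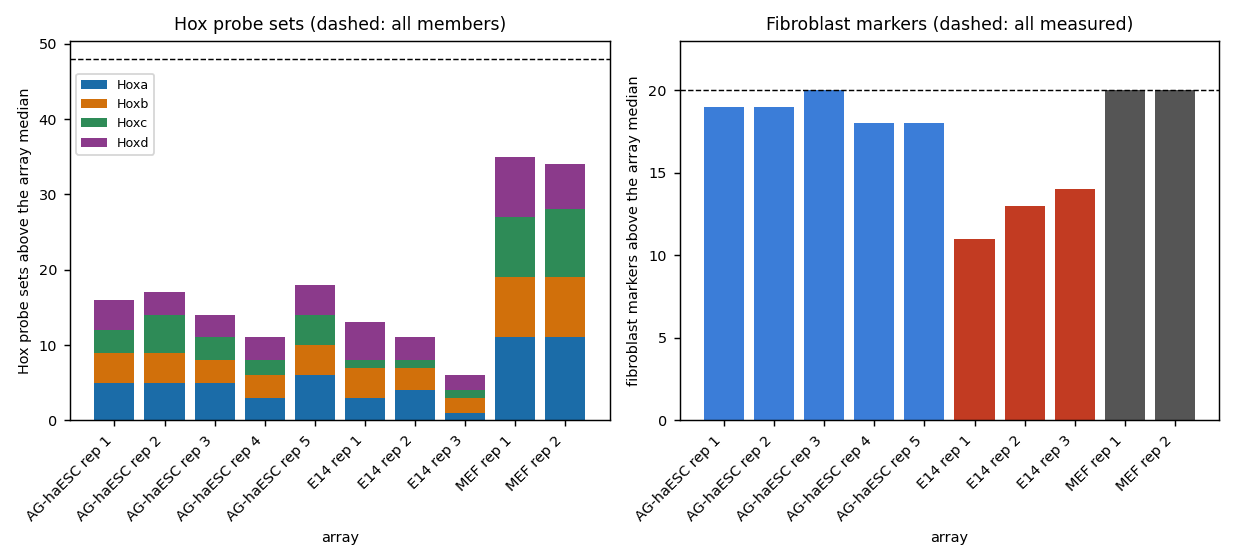
Left, number of Hox probe sets above the array median on each array, stacked by cluster, with a dashed line at all 48. Right, number of fibroblast markers above the array median on the same arrays, with a dashed line at all 20 measured. AG-haESC hold 11 to 18 Hox probe sets and 18 to 20 fibroblast markers, E14 6 to 13 and 11 to 14, and MEF 34 to 35 and 20.

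Probe sets of the same gene did not always share a call. Of 11 genes with several, 6 had probe sets that differed in their call between MEF and E14, namely Hoxa3, Hoxa4, Hoxa9, Hoxa10, Hoxc6 and Hoxd13. Hoxa3, needed for the thymus and the parathyroid, was at least 4.54-fold higher with 1452421_at and at least 3.29-fold higher with 1427433_s_at, while 1429398_at and 1431392_at were not called (0.94 ± 1.20 and 0.11 ± 0.66). The second probe set of Hoxa10, 1446408_at, read 4.52 and 3.72 in MEF against 0.68 to 5.70 in E14, and the second of Hoxd13, 1422239_at, read 5.84 and 5.49 against 3.68, 2.83 and 4.76. All of these uncalled probe sets were dim on every array. Of the Hoxa4 probe sets, 1427354_at was called (3.56 ± 1.08, above the median on 1 MEF array) and 1420226_x_at was dim on every array. The call of 1427354_at ended without E14 replicate 2 or either MEF array (adjusted p from 0.0623 to 0.155) and with dim values set to the array median (0.477). Hoxa9 differed in another way, since 1421579_at read 6.89, 6.63 and 6.00 in E14 and 8.33 and 8.15 in MEF, and its difference of 1.73 ± 0.84 was not called (adjusted p = 0.149 in limma), but it was with the floor at the array median (0.00193), the pseudocount (0.044) or the 2 groups fitted alone (0.0117). Hoxc6, a thoracic gene, was higher with 1427361_at (3.20-fold) and 1427362_x_at (at least 4.03-fold) and not with 1427454_at (0.21 ± 1.15), and the call of 1427361_at ended without E14 replicate 1 or either MEF array (adjusted p from 0.0524 to 0.115). Against AG-haESC the genes with unlike calls were Hoxa3, Hoxa10, Hoxc6 and Hoxd8, and between the stem cell groups Hoxa10. With 1 value per gene, 24 genes by the brightest probe set and 25 by the mean of all probe sets were higher in MEF than in E14.

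Noncoding RNAs of the clusters were read for 3 genes. Hoxb5os, an antisense transcript at Hoxb5, read 10.87 and 10.58 in MEF, 5.15, 5.38 and 5.05 in E14, and 2.64, 4.18, 4.38, 5.01 and 2.29 in AG-haESC. All stem cell arrays were dim, and MEF were at least 25.8-fold above E14 (5.53 ± 0.74, adjusted p = 8.3e-05 in limma) and at least 27.3-fold above AG-haESC. Hoxa11os was at least 6.55-fold and Hoxd3os1 at least 1.36-fold higher in MEF than in E14 by their brightest probe sets, and the second probe set of each was dim on every array and not called. None of the 3 passed the threshold between AG-haESC and E14.

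Some cofactors of the Hox proteins were higher in MEF as well. Of 8 Pbx, Meis and Pknox genes, 4 were higher in MEF than in E14 (Meis1, Meis2, Pknox2 and Pbx3) and none was called lower, with a median of 1.24 over the 8, where 15.1% of all genes were higher by their brightest probe set. Meis1 read 9.82 and 9.56 in MEF and 5.07, 4.45 and 5.48 in E14, at least 12.6-fold higher (4.69 ± 0.61, adjusted p = 6.82e-05 in limma). Meis2 was 15.4-fold and Pknox2 8.24-fold higher. Between the stem cell groups 2 of 8 were higher in AG-haESC, where 3.04% of all genes were. Meis2 read 9.13, 8.55, 8.43, 7.94 and 8.64 in AG-haESC and 6.81, 7.06 and 6.41 in E14 (1.78 ± 0.25, 3.43-fold, adjusted p = 0.00107 in limma). Pknox2 read 8.36, 8.32, 8.53, 8.12 and 8.36 against 5.89, 6.00 and 6.20 (2.31 ± 0.19, 4.96-fold, adjusted p = 2.26e-05 in limma), and neither gene's groups overlapped.

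Of the upstream regulators, retinoic acid genes were called in both directions. Against E14, 6 of 14 were higher in MEF and 2 lower (against 15.1% and 15.5% of all genes), with a median difference of 0.60. Among the higher were Aldh1a1 (at least 1.98-fold) and Aldh1a2 (at least 4.32-fold), which make retinoic acid, Cyp26b1 (at least 3.93-fold), which breaks it down, and the binding protein Crabp1 (9.32-fold). Crabp2 (5.46-fold) and the receptor Rarb (4.38-fold), named after their values were seen, were higher too. The 2 lower genes, the receptor Rara and the degrading enzyme Cyp26a1, are named after their values were seen. Between the stem cell groups 1 of 14 was lower in AG-haESC, Rara (3.11-fold), where 2.24% of all genes were lower. Of 6 Cdx and ParaHox genes, which include the Cdx activators of the clusters, 1 was lower in MEF than in E14 (against 15.5% of all genes). This was Cdx1, dim in MEF and near the array medians in E14, so no fold is given. Cdx4 was called higher in MEF than in E14 (1 of 6, against 15.1%), so both counts lay near the share of all genes. Cdx4 was also called higher in AG-haESC than in E14 (1 of 6, against 3.04%), and it was dim on every array.

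Polycomb genes keep the clusters silent. Of 18, 8 were lower in MEF than in E14 (against 15.5% of all genes) and 2 higher (against 15.1%), with a median difference of -0.63. Cbx7 was at least 23.5-fold, Jarid2 12.7-fold, Mtf2 8.09-fold and Phc1 7.93-fold lower. Named after their values were seen, the 2 higher genes were Phc2 and Phc3, and Ezh2, the methyltransferase of the repressive complex, read 10.46 and 10.63 in MEF and 12.79, 12.98 and 12.75 in E14 (4.90-fold lower). Between the stem cell groups 1 of 18 was called, Phc1, which was 2.09-fold lower in AG-haESC. Of all genes, 2.24% were lower and 3.04% higher there. Of 10 Trithorax genes, which maintain active Hox genes, 4 were lower in MEF than in E14 (against 15.5% of all genes). These were Dpy30, Ash2l, Wdr5 and Rbbp5, and the median of the list was -0.85. None was higher (against 15.1% of all genes), and none was called between the stem cell groups. Of 14 genes that flank the clusters none was higher in MEF than in E14 (against 15.1% of all genes). Lower were 3 (against 15.5% of all genes), namely Snx10, Skap2 and Calcoco2. Calcoco2, near Hoxb, was at least 15.8-fold lower in MEF than in E14 and was 6.41-fold higher in AG-haESC than in E14.

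Other genes of limb and axial position were compared with the Hox genes. Of 20, 11 were higher and 1 lower in MEF than in E14 (against 15.1% and 15.5% of all genes), with a median difference of 2.43. Prrx1, a factor of limb mesenchyme that is also among the fibroblast markers, was at least 95.2-fold higher with dim arrays at the median (1 of 3 E14 arrays lay above it), Tbx15 at least 22.3-fold and Shox2 at least 30.8-fold higher, and Otx2, a forebrain gene that stem cells express, was at least 22.6-fold lower. Of the limb genes, named after their values were seen, the hindlimb gene Tbx4 read 9.43 and 9.25 in MEF and 5.70, 5.64 and 6.65 in E14, and was called, and the forelimb gene Tbx5 read 7.17 and 6.72 in MEF and 5.26, 5.66 and 4.95 in E14 and was not (adjusted p = 0.218 in limma). Tbx5 was called higher in MEF than in AG-haESC (3.56 ± 0.86, adjusted p = 0.00575 in limma), where 1 of 5 AG-haESC arrays lay above the median, and the genes were not tested against each other. Between the stem cell groups Tbx15 was higher in AG-haESC (2.78 ± 0.44, with 5 of 5 lines above all E14 arrays). It lay above the median on 2 of 5 AG-haESC arrays and on no E14 array, so no fold is given. Otx2 was 2.54-fold lower in AG-haESC than in E14.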

How the data were processed

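RNA of 10 sorted mouse cell samples was hybridised to Affymetrix GeneChip arrays. The deposited values are linear signal intensities from the authors' MAS5 run, per the submitters' processing notes, and the 2% trimmed mean of every array was 500. Such scaling hides changes in total RNA per cell. Groups came from the sample labels.

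Log2 signals entered limma 3.58.1 (R 4.3.3), as 3 group means over all 10 arrays, 7 residual degrees of freedom, a prior variance that follows the signal and no filter, so that every Hox probe set was tested. After 64 control probe sets were left out, p-values (two-sided) were adjusted by Benjamini-Hochberg over 45037 probe sets, and gene lists used the brightest probe set of each of 18193 genes. On simulated data the fit called 21% to 30% of changes of 1.5 log2 units and 50% to 62% of changes of 3, with 2 to 4 false calls. A probe set that was not called may therefore still differ. A fold is given as at least N where all arrays of the dimmer group lay below their medians, with that group put at the medians. Precision is limited by how many arrays there were. The 3 comparisons share arrays.

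The members and lists were chosen with earlier results of these data known. Named were all Hox genes called between the stem cell groups, above the median in at least 3 AG-haESC or 2 E14 arrays, of numbers 9 to 13, with unlike probe set calls, or among the 3 largest differences between MEF and E14 of their cluster, and at most 4 called genes of each other list. Alternatives covered the filter, a pseudocount of 32, a floor, quantile normalization, the prior trend, array weights, 2-group fits, 1 value per gene, each array left out and a replicate block.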

Additional observations from a re-analysis of the deposited data

Results flagged for a closer look

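Of the 48 Hox probe sets, 2 had an AG-haESC line that stood apart from the other 4 by Dixon's criterion, which chance alone meets in about 1 in 20 groups. Hoxb5 read 4.53 in AG-haESC replicate 4 and 1.85 to 2.52 in the other lines. Hoxd3 read 0.82 in AG-haESC replicate 4 and 4.37 to 5.34 in the other lines. All of these values lay below the array medians.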

How the results depend on the processing

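The number of Hox probe sets higher in MEF than in E14 (33) lay between 29 and 35 under the alternatives with all arrays, and between 26 and 32 with 1 array left out. The number higher in MEF than in AG-haESC (31) lay between 28 and 35, and between 21 and 33. Called in either direction were 26 to 34 against E14 and 22 to 35 against AG-haESC with 1 array left out. The small counts moved most. Lower in MEF than in E14 was 1 probe set, but 0 with the filter, with the pseudocount of 32, with the floor at the array median, with quantile normalization and with the 2-group fit, and 3 with array weights, with a range of 0 to 3 without single arrays. Lower in MEF than in AG-haESC were 2, but 1 without the prior trend, and 1 to 2 without single arrays. Higher in AG-haESC than in E14 were 5, but 2 with the pseudocount, 3 with the floor, 3 with the 2-group fit and 4 without the prior trend, and 2 to 5 without single arrays. The floor turned the Hoxc8 and Hoxc10 differences between the stem cell groups to -0.0810 each, since it sets dim values to the array median by construction. It also gave -0.00722 for Hoxc6 (1427362_x_at) there, and between MEF and E14 -0.054 for the second or uncalled probe sets of Hoxa3 (both), Hoxa4, Hoxa10, Hoxb7, Hoxc6 (1427454_at) and Hoxd13. None of the other differences that changed sign was called with all arrays. Between MEF and E14, Hoxa3 (1431392_at) turned to -0.10 with array weights and -0.21 with the replicate block, Hoxc6 (1427454_at) to -0.28 with the block and Hoxa10 (1446408_at) to -0.0442 with the pseudocount. Without single arrays, the MEF minus E14 values ran from -0.59 to 2.46 for Hoxa3 (1429398_at), from -0.39 to 0.60 for Hoxa3 (1431392_at), from -0.73 to 1.78 for Hoxa10 (1446408_at), from -0.34 to 0.77 for Hoxc6 (1427454_at) and from -0.72 to 0.41 for Hoxd1. The AG-haESC minus E14 values ran from -0.0382 to 0.63 for Hoxb4 (1460379_at), from -0.10 to 1.31 for Hoxc13 and from -0.64 to 0.0278 for Hoxd8 (1431099_at). Of 43 further differences that involve AG-haESC that were called under no setting, 24 changed sign under some. The cause of the other changes was not tested. With the replicate number of E14 and MEF as a block, 34 probe sets were called between MEF and E14, 31 higher and 3 lower. In that fit E14 replicate 3 has no MEF partner, so its MEF minus E14 differences equal those without that array. The same-numbered arrays did not deviate together (correlations of -0.0145 and -0.0165). With 2 MEF arrays the deviations mirror each other by construction, so these values cannot decide whether the numbers pair the arrays. Limits: the deposited values carry no detection calls, so dimness was judged by the array median, and MEF had 2 arrays.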
